A study of Mus musculus with 6 samples.

Results

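The products of Lyz2, S100a8, Cd14, Itgam and Ctsg are the working tools of neutrophils, monocytes and macrophages: a granule protease, a lysozyme, a subunit of calprotectin, an endotoxin receptor and an integrin chain. The 5 genes were selected by name from a table of PRO-seq counts, and each had 1 transcript row, so 5 of 3022 rows and 5 of 2744 genes are described. PRO-seq maps RNA polymerase that is engaged on DNA, because isolated nuclei are allowed to lengthen the RNA being made with biotin-tagged nucleotides, and the tagged RNA is then captured and sequenced.

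The cells were cKIT+ bone marrow progenitors from female Mllt3 flox/flox Rosa26Cre+ mice of the C57/BL6 strain, whose age is not given in the labels. They were transduced with wild-type MLLT3 (WT, 3 libraries) or with a double mutant, MLLT3 K63E K67E (DM, 3 libraries), sorted, and grown in methylcellulose for 8 days. All 6 cultures also received 200 nM 4-hydroxytamoxifen to delete the endogenous Mllt3, mFlt3L at 10 ng/mL, gentamycin, and hEPO, hTPO, mSCF, mGMCSF, mIL-11, mIL-6 and mIL-3 at 20 ng/mL each. Run-on lasted 3 min, and the labels place every library in batch 1. The labels do not say whether the libraries of a group came from separate mice. The p-values therefore set group differences against the spread between these libraries, which may be technical. Nor do they give a control without added MLLT3: both groups carry a transgene on a deleted background.

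As background, granule and effector genes are switched on in sequence as a myeloid progenitor matures. Serine proteases of the primary (azurophil) granules, such as cathepsin G, are made at the promyelocyte stage and are shut off afterwards, whereas calprotectin, integrin alpha M and CD14 belong to later neutrophil and monocyte stages, and lysozyme continues to be made in macrophages. The transcription factors PU.1, C/EBP, RUNX1 and MYB are the best known regulators of these promoters.

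The genes lie on 5 chromosomes, in the coordinates of the deposited table (mm10, per the submitters' processing notes). Ctsg (ENSMUSG00000040314.2) is on chromosome 14, 56099881 to 56101775, minus strand. Lyz2 (ENSMUSG00000069516.8) is on chromosome 10, 117277331 to 117282321, minus strand, and S100a8 (ENSMUSG00000056054.9) on chromosome 3, 90668978 to 90670035, plus strand. Itgam (ENSMUSG00000030786.18) is on chromosome 7, 128062640 to 128118491, plus strand, and Cd14 (ENSMUSG00000051439.7) on chromosome 18, 36725067 to 36726738, minus strand. Each transcript was divided into a head window of 330 bp, which begins 30 bp before the transcript's 5′ end, and a body, which is the rest of the transcript, introns included. The body was 55550 bp long in Itgam, 4689 bp in Lyz2, 1593 bp in Ctsg, 1370 bp in Cd14 and 756 bp in S100a8.

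The 5′ ends used for these windows were set beside the gene starts of RefSeq (GRCm38.p6). They coincided for Itgam, and the deposited end lay 49 bp upstream of the RefSeq start for Lyz2, 93 bp upstream for S100a8 and 77 bp downstream for Cd14. For Ctsg it lay 799 bp downstream. The head window of Ctsg therefore covers sequence inside the gene as RefSeq draws it, not the first bases after its start, and Ctsg head counts below are counts of that internal window.

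The 4 promoters that the RefSeq table holds are shown because the genes they belong to moved in opposite directions, Ctsg down and the other 3 up. Sequences run 5′ to 3′ on the gene's strand from 250 bases before the RefSeq start, and stop before the 5′ end of the deposited transcript where that lies further upstream. Capitals mark GAGGAA, the core of the PU.1 motif, on either strand (TTCCTC on the opposite strand), and its longer form GAGGAAGT, which contains it.
Ctsg, chr14:56102575-56102824, minus strand: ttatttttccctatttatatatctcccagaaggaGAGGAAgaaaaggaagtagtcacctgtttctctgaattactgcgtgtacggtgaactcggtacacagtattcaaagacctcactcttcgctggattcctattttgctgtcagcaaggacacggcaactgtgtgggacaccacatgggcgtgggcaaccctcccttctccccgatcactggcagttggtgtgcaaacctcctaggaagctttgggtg
Lyz2, chr10:117282322-117282522, minus strand: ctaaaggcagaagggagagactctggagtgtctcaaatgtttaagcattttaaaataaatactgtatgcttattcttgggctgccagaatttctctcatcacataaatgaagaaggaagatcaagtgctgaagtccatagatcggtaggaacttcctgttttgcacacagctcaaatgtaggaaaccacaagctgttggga
S100a8, chr3:90668821-90668977, plus strand: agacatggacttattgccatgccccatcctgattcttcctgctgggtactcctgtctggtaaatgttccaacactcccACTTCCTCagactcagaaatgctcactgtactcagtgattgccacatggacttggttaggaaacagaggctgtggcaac
Itgam, chr7:128062390-128062639, plus strand: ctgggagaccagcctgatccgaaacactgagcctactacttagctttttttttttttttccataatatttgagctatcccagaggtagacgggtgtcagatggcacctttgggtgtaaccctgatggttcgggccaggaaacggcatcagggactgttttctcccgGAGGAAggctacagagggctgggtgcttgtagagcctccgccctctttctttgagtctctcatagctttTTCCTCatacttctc

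Over the 250 bases before the start, the core was found at 216 bases before the start in Ctsg, at 84 and 15 in Itgam, at 170 and 36 in S100a8 (the latter past the stretch shown), and not in Lyz2. The longer form was found only in S100a8, at 172 bases before the start. Over all 32851 promoters of the same length in that table, 23.3% hold the core and 2.44% the longer form on either strand. The C/EBP letters TTGCNNAA (9.56% of promoters) were in none of the 4. The RUNX letters TGTGGT (14.0%) were in Lyz2 at 66 and in Ctsg at 79 bases before the start, and the MYB letters AACGG (14.5%) in Itgam at 111, all searched on both strands. These are matches of letters, and PRO-seq does not measure binding.

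Library totals ran from 15112853 reads (WT replicate 2) to 22981603 (WT replicate 1), and RPM below means reads per 1000000 of that total. Every row of the table had an adjusted p-value under 0.05 for the body in the authors' deposited table (largest 0.0498), so body differences were a condition for being listed. Tested again with edgeR's quasi-likelihood test, 2982 of 2999 rows passed an adjusted p of 0.05, which is 99.4% (57.4% of rows higher and 42.1% lower in DM), so the body calls of the 5 genes are given as a description. The head windows did not enter that selection, although head and body share a gene: 596 of 2846 rows tested passed, which is 20.9%, with 10.0% of rows higher and 10.9% lower in DM. The median log2 fold change of DM over WT was 0.40 over all body rows and -0.11 over all head rows. TMM scaling, computed on the selected rows, moved the body median by -0.29, and RLE scaling by -0.34; the 2982 calls were 1720 higher and 1262 lower here, against 1056 and 1276 with TMM and 945 and 1277 with RLE.

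The number of head calls depended on single libraries. It was 955 without WT replicate 1, 1054 without WT replicate 2, 356 without WT replicate 3, 18 without DM replicate 1, 237 without DM replicate 2 and 142 without DM replicate 3. WT replicate 2 had the highest share of its library total in the head windows of the table, counted on 1 row per gene. This share was 3.77%, against 2.29% to 2.75% in the other 5 libraries.

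Ctsg, the protease of early granules, fell in DM, and the 4 later genes rose. In the body, Ctsg went from 47.0 ± 2.72 to 26.2 ± 4.94 RPM (SD, n = 3 each), 1.80-fold lower, while Lyz2 was 4.23-fold, S100a8 2.86-fold, Cd14 2.58-fold and Itgam 2.37-fold higher. In the heads, all 4 later genes were also higher past the threshold, as were 10.0% of all head rows. Without DM replicate 1, Cd14 and Itgam did not pass there (edgeR adjusted p 0.0699 and 0.0724). The lower head value of Ctsg, -0.70 on the log2 scale in its internal window, was not past the threshold. In bulk nuclei, fewer cells of a type and fewer polymerases per cell cannot be told apart.

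Ctsg encodes cathepsin G, a serine protease stored in azurophil granules. There were 1125, 663 and 1100 body reads in the WT libraries (replicates 1 to 3) against 571, 443 and 631 in those of DM, which is 49.0, 43.9 and 48.1 RPM against 25.0, 21.9 and 31.6. The highest DM library stayed below the lowest WT library, as was the case in 38.4% of all body rows. The body log2 fold change was -0.85 (SE 0.14, 95% interval -1.16 to -0.53, edgeR adjusted p 8.71e-04), the 403rd lowest of 2999.

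The head window of Ctsg had 287, 102 and 352 reads in the WT libraries against 150, 156 and 142 in those of DM, or 12.5, 6.75 and 15.4 RPM against 6.57, 7.72 and 7.11. WT replicates 1 and 3 were above all DM libraries, and WT replicate 2 lay among them, so the groups overlapped; in 23.5% of head rows every DM library was below every WT library. The head log2 fold change was -0.70 (SE 0.30, 95% interval -1.34 to -0.07, edgeR adjusted p 0.0987). Without WT replicate 2 it was -0.97 (edgeR adjusted p 0.00190), and over all alternatives the adjusted p ran from 0.00190 to 0.377.

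Lyz2 encodes the lysozyme of phagocytes, which cuts bacterial cell walls. Its body reads numbered 760, 753 and 1486 in the WT libraries against 4929, 3662 and 4556 in those of DM, which is 33.1, 49.8 and 65.0 RPM against 216, 181 and 228. Every DM library was above every WT library, as in 57.3% of all body rows, and the lowest and highest WT library were further apart in proportion than those of DM. The body log2 fold change was 2.08 (SE 0.22, 95% interval 1.57 to 2.58, edgeR adjusted p 1.08e-04), the 10th highest of 2999. In the authors' deposited table, its percentile among the rows they ranked was 99.99 for the body change and 99.64 for the head change.

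The head of Lyz2 had 136, 148 and 212 reads in the WT libraries against 547, 533 and 548 in those of DM, or 5.92, 9.79 and 9.27 RPM against 23.9, 26.4 and 27.4. The groups did not overlap, as in 18.9% of head rows with the higher values in DM. The head difference came to 1.64 on the log2 scale (edgeR adjusted p 0.00496, SE 0.27), the 40th highest of 2846. Lyz1, the close paralog of Lyz2, lies 5474 bp from it in RefSeq and was not in the table, so it has no value here. How reads that map to both were treated is not given in the sources used here, so the Lyz2 counts are uncertain to that extent.

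S100a8 encodes a subunit of calprotectin, the calcium- and zinc-binding protein that fills the cytosol of neutrophils. Its body reads numbered 376, 378 and 269 in the WT libraries against 1007, 994 and 1173 in those of DM, which is 16.4, 25.0 and 11.8 RPM against 44.1, 49.2 and 58.7. The groups did not overlap, and the WT libraries differed by more among themselves than for any other of the 5 genes (SD 38.0% of the mean). The body difference came to 1.53 on the log2 scale (edgeR adjusted p 7.03e-04, SE 0.24). The head had 223, 153 and 192 reads in the WT libraries against 606, 551 and 544 in those of DM, and the difference there came to 1.52 on the log2 scale (edgeR adjusted p 0.00466, SE 0.24). In RPM the heads were tighter than the body, 9.41 ± 0.90 for WT against 27.0 ± 0.41 for DM (SD, n = 3 each). Its partner S100a9 was not in the table, so it has no value here.

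Cd14 encodes the co-receptor that hands lipopolysaccharide to the TLR4 complex on monocytes and macrophages. It had the fewest body reads of the 5 genes, 137, 59 and 94 in WT and 319, 210 and 234 in DM, which is 5.96, 3.90 and 4.11 RPM against 14.0, 10.4 and 11.7. The groups did not overlap, and the difference came to 1.36 on the log2 scale (edgeR adjusted p 9.50e-04, SE 0.23). The head had 58, 33 and 57 reads in the WT libraries against 129, 103 and 103 in those of DM, a difference of 1.14 on the log2 scale (edgeR adjusted p 0.0101, SE 0.26), again without overlap. Without DM replicate 1 the head adjusted p (edgeR) was 0.0699 and without DM replicate 3 it was 0.0565, in a range from 0.00164 to 0.0699 over all alternatives.

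Itgam encodes integrin alpha M (CD11b), which pairs with the beta-2 chain to form the complement receptor of neutrophils and monocytes. Its body reads numbered 1700, 1172 and 1827 in the WT libraries against 4305, 3557 and 3662 in those of DM, which is 74.0, 77.6 and 79.9 RPM against 188, 176 and 183. It was the most even of the 5 genes, with an SD of 3.84% of the mean in WT and 3.45% in DM, and had the narrowest interval: a difference of 1.24 on the log2 scale (95% interval 1.03 to 1.45, SE 0.09, edgeR adjusted p 6.04e-05). The head had 77, 48 and 88 reads in the WT libraries against 199, 146 and 140 in those of DM, a difference of 1.14 on the log2 scale (edgeR adjusted p 0.00929, SE 0.25). Without DM replicate 1 the head adjusted p (edgeR) was 0.0724, in a range from 8.24e-04 to 0.0724. The gene model Gm49368 overlaps Itgam on the same strand, and went from 86.4 to 209 body RPM; it was named after its values were seen. How reads in the overlap were assigned is not given in the sources used here, so the counts of both are uncertain to that extent.

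**Figure D1:**
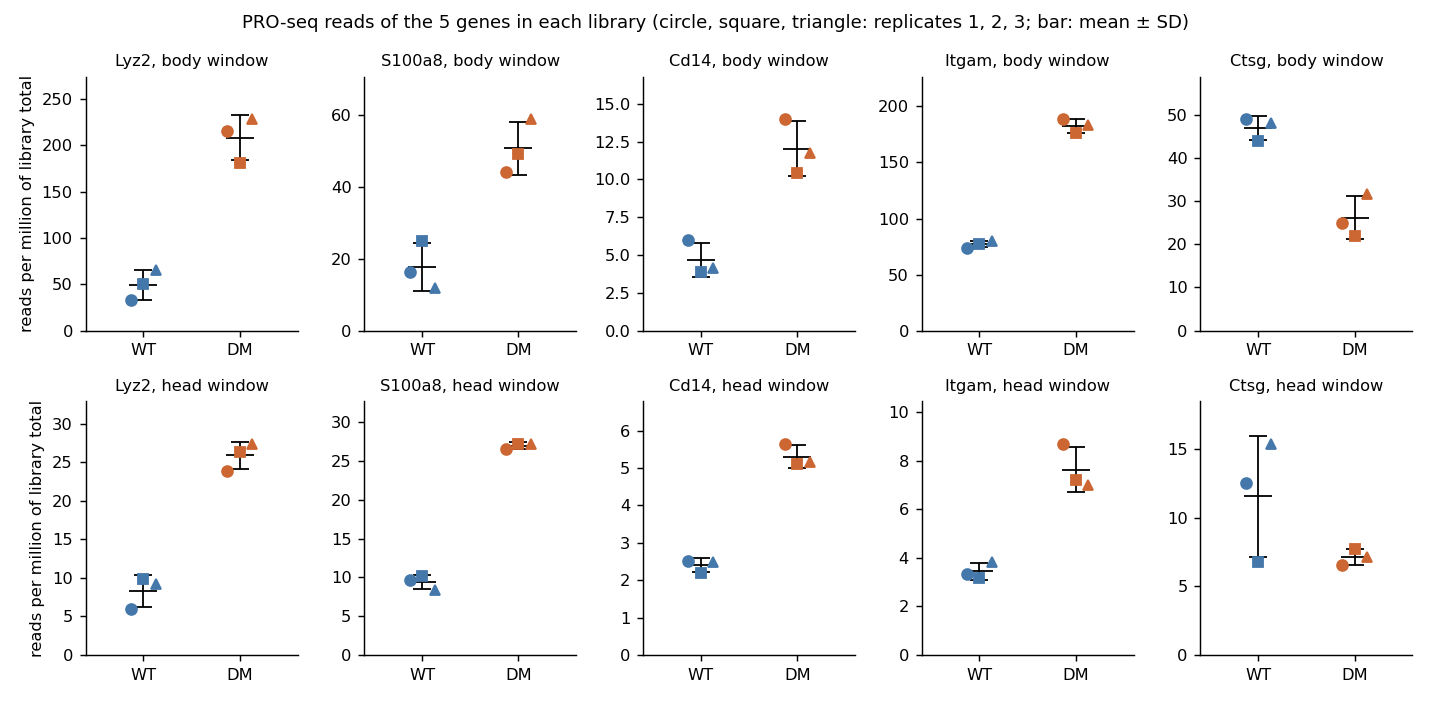
RPM, reads per 1000000 of the library total (vertical axes, starting at 0) in the body (top row) and head (bottom row) of the 5 genes, by group (horizontal axis), with replicates 1, 2 and 3 as circle, square and triangle and mean ± SD as bars. The 4 later genes are higher in all 3 DM libraries in both windows, Ctsg is lower in the body, and in the Ctsg head WT replicate 2 lies at 6.75 RPM, among the DM libraries.

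Set against each other within a library, the early and the later genes need no library scaling. The bodies of Ctsg and Lyz2 held similar numbers of reads in WT: there were 148, 88.0 and 74.0 Ctsg reads per 100 Lyz2 reads in the WT libraries (replicates 1 to 3), against 11.6, 12.1 and 13.9 in those of DM. On the log2 scale the ratio moved by -2.99, which is 7.92-fold. In DM the 3 libraries were close together, and all of them were far below the lowest WT library.

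Against S100a8 there were 299, 175 and 409 Ctsg body reads per 100 in WT and 56.7, 44.6 and 53.8 in DM, so Ctsg had more reads than S100a8 in each WT library and fewer in each DM library. Per 100 Cd14 reads the WT libraries had 821, 1124 and 1170 Ctsg reads, against 179, 211 and 270 in DM. Per 100 Itgam reads it was 66.2, 56.6 and 60.2 for WT against 13.3, 12.5 and 17.2 for DM. These are changes of -2.43, -2.24 and -2.10 on the log2 scale, or 5.41-fold, 4.73-fold and 4.29-fold. None of these ratios overlapped between the groups. That follows from the body levels, since Ctsg was already lower and each later gene already higher in DM without overlap. No test was made of the ratios.

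In the heads the WT spread was wider. Ctsg reads per 100 Lyz2 head reads came to 211, 68.9 and 166 for WT against 27.4, 29.3 and 25.9 for DM, a change of -2.29 on the log2 scale. For S100a8 they were 129, 66.7 and 183 against 24.8, 28.3 and 26.1, for Cd14 495, 309 and 618 against 116, 151 and 138, and for Itgam 373, 213 and 400 against 75.4, 107 and 101. WT replicate 2 had the lowest value of the WT libraries in all 4, and it was still above every DM library. The log2 changes were -2.14 for S100a8, -1.76 for Cd14 and -1.76 for Itgam.

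**Figure D2:**
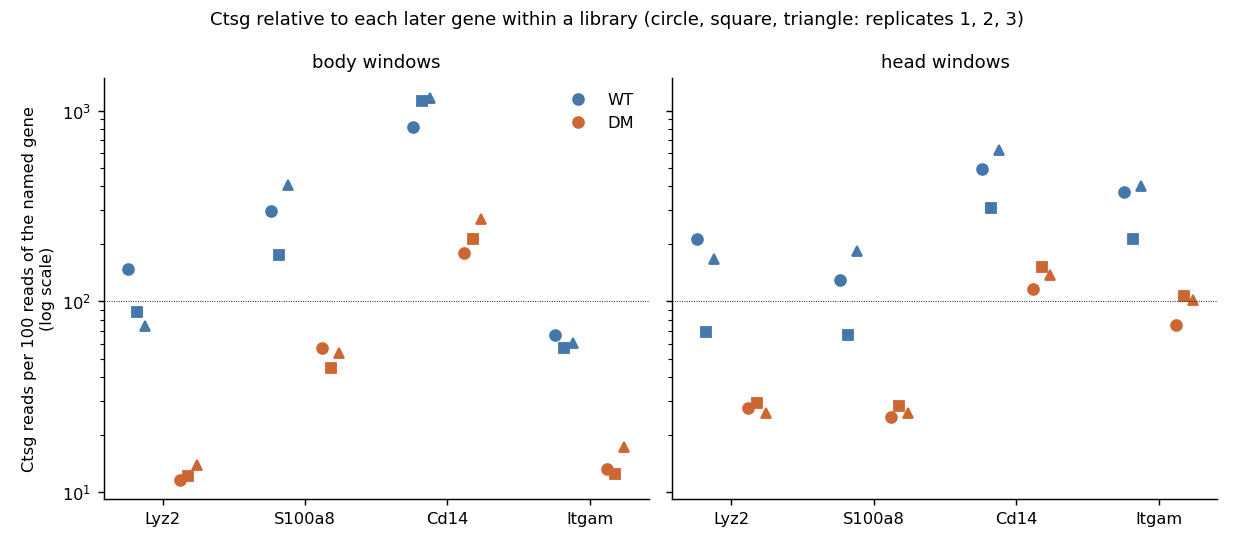
Ctsg reads per 100 reads of the gene named on the horizontal axis, within each library, for body windows (left) and head windows (right), on a log scale; the dotted line marks 100, WT is blue, DM is orange, and circle, square and triangle are replicates 1, 2 and 3. In each of the 8 columns the 3 DM libraries lie below the 3 WT libraries, and against Lyz2 the body values fall from between 74.0 and 148 to between 11.6 and 13.9. The separation in the body columns follows from body levels that do not overlap between the groups.

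Levels of different genes were compared per length, as RPKM, which is body RPM per kilobase of body. In WT the order was Ctsg (29.5 ± 1.71), S100a8 (23.4 ± 8.90), Lyz2 (10.5 ± 3.40), Cd14 (3.40 ± 0.83) and Itgam (1.39 ± 0.05; SD, n = 3 each). The ranges of Ctsg and S100a8 overlapped, 27.5 to 30.7 against 15.6 to 33.1, and the other neighbours in the order did not. In DM the order was S100a8 (67.0 ± 9.82), Lyz2 (44.4 ± 5.19), Ctsg (16.4 ± 3.10), Cd14 (8.77 ± 1.32) and Itgam (3.29 ± 0.11), with no overlap between neighbours. Ctsg thus stood at the top of the body densities in WT and in the third place in DM. Introns are part of these lengths, and the long body of Itgam is divided by 55550 bp.

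Head and body were also set against each other within a gene. Per length, the head density was 7.54 ± 0.61 times that of the body in WT and 7.04 ± 0.68 times in DM for Itgam, the gene with the highest ratio. It was 2.45 ± 0.39 and 1.78 ± 0.25 for Lyz2, 2.20 ± 0.39 and 1.85 ± 0.18 for Cd14, 1.31 ± 0.36 and 1.24 ± 0.16 for S100a8, and 1.17 ± 0.40 and 1.35 ± 0.32 for Ctsg (SD, n = 3 each). The groups overlapped for all 5 genes.

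None of the 5 passed in edgeR's test of the interaction of window and group. Over all rows tested, the median log2 change of the head to body ratio was -0.25, and 27.4% of rows had a positive value. The log2 change of the ratio was -0.45 for Lyz2 (95% interval -1.003 to 0.096, edgeR adjusted p 0.390) and -0.23 for Cd14 (-0.86 to 0.40, edgeR adjusted p 0.710). It was -0.10 for Itgam (-0.65 to 0.44, edgeR adjusted p 0.859), -0.05 for S100a8 (-0.64 to 0.54, edgeR adjusted p 0.944) and 0.22 for Ctsg (-0.45 to 0.89, edgeR adjusted p 0.744). Of 2844 rows tested, 2 passed, which is 0.0703%, and 433 had an unadjusted p under 0.05; the count was 12, 90 and 4 without WT replicates 1, 2 and 3, and 0 without any of the DM replicates (169, 275 and 183 at an unadjusted p under 0.05). In counts simulated with the same spread between replicates in both groups, this test recovered 46.9% of ratios changed 2-fold. A ratio change of that size in a single gene would often be missed in such counts. In the data WT replicates differed by more than those of DM, which was not simulated, so the recovery there is not known.

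**Figure D3:**
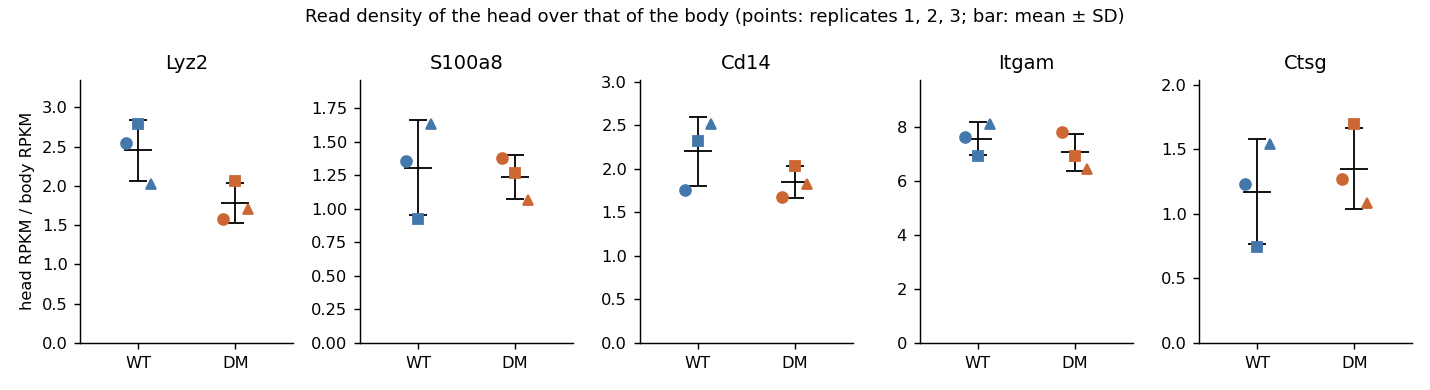
Head RPKM divided by body RPKM (vertical axes, starting at 0) in each library of WT and DM for the 5 genes, with replicates 1, 2 and 3 as circle, square and triangle and mean ± SD as bars. The groups overlap in every panel, and Itgam has the highest ratios, 6.44 to 8.11 over the 6 libraries.

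**Figure D4:**
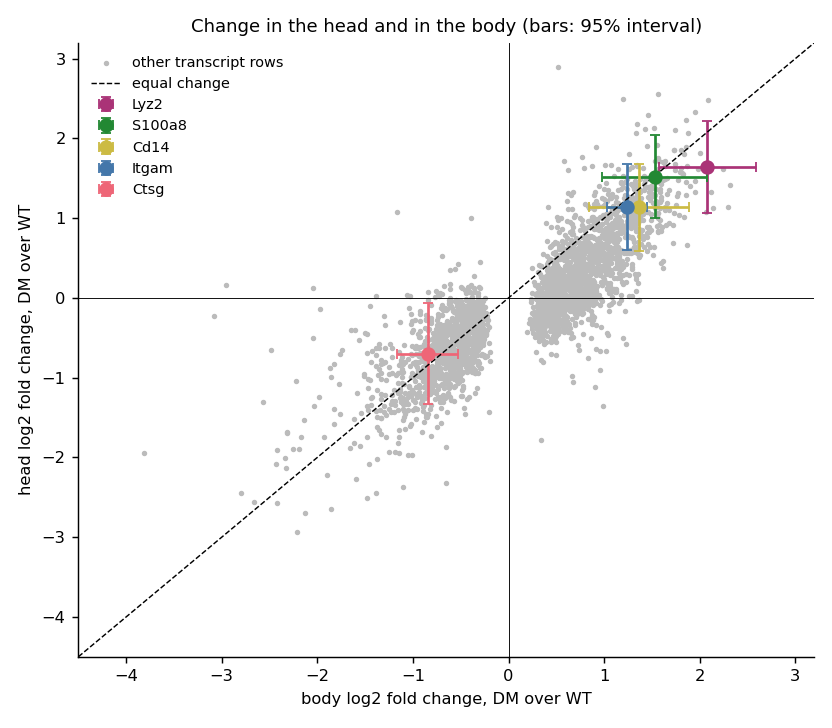
Log2 fold change of DM over WT in the body (horizontal axis) and head (vertical axis) for all rows tested in both windows (grey) and the 5 genes (coloured, with 95% intervals); the dashed line marks equal change. The empty band around 0 on the horizontal axis is the selection of rows by the body; the 4 later genes lie between 1.24 and 2.08 in the body and 1.14 and 1.64 in the head, and Ctsg at -0.85 and -0.70.

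Other genes of the granule, lysosome and sensing lists were counted to place the 5 among their kind, with the 5 left out. Since 99.4% of all body rows were called (57.4% higher, 42.1% lower), a body call of a listed gene is near certain, and only its direction and size differ between lists; in the heads 10.0% of all rows were called higher and 10.9% lower. Head calls of the lists rested on single libraries: without DM replicate 1, Fpr2 was the only gene of the 8 lists that still passed in the head, and Mmp8, Itgb2 and Tlr2 had adjusted p of 0.0533, 0.0778 and 0.0937 (edgeR). Of 9 other primary granule genes, 3 were in the table and all 3 fell in the body (median log2 fold change -0.71, against 0.40 over all rows). Mpo, Elane, Prtn3, Ctsc, Ms4a3 and Serpinb1a were not in the table and have no value here, so the 3 do not stand for the list. Srgn, the serglycin that packs granule proteases, changed by -0.86 (SE 0.25), Cst7, a cystatin that inhibits cathepsins, by -0.71 (SE 0.14), and Cd63, a granule membrane tetraspanin, by -0.50 (SE 0.16), with edgeR adjusted p of 0.0106, 0.00200 and 0.0135. Without WT replicate 1 Srgn was at -0.47 (edgeR adjusted p 0.00650), and without DM replicate 1 Cd63 did not pass (-0.45, edgeR adjusted p 0.0541). None of the 3 passed in the head (median -0.49).

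Of 15 other specific, gelatinase and secretory granule genes 6 were in the table, and all 6 rose in the body (median 1.05); 1 of the 5 tested in the head rose (2 with TMM or RLE scaling). Mmp8, neutrophil collagenase, rose by 1.76 (SE 0.22, edgeR adjusted p 2.12e-04), and was also higher in the head (1.28, edgeR adjusted p 0.00594). The oxidase subunits Ncf1 and Cyba rose by 0.50 and 0.88 in the body (SE 0.11 and 0.19, edgeR adjusted p 0.00362 and 0.00292), and had head values of 0.43 and 0.16 that did not pass.

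Of 7 other S100 genes 5 were in the table and all 5 rose in the body (median 1.14), 2 of them also in the head (all 5 with TMM or RLE scaling). S100a4 rose by 1.39 (SE 0.31, edgeR adjusted p 0.00356), S100a11 by 1.14 (SE 0.12, edgeR adjusted p 9.34e-05), S100a6 by 0.85 (SE 0.12, edgeR adjusted p 4.40e-04) and S100a10 by 0.43 (SE 0.12, edgeR adjusted p 0.00893). All encode small proteins of the family of S100a8. S100a6 and S100a4 lie 44797 and 62933 bp from S100a8 on the same strand.

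Of 10 other integrin and adhesion genes 5 were in the table and all 5 rose in the body (median 1.08), 3 of them also in the head. Itgb2, the beta-2 chain that Itgam needs to reach the surface, rose by 1.24 (SE 0.14, edgeR adjusted p 1.24e-04), the same size as Itgam, and by 1.08 in the head (edgeR adjusted p 0.0227). Cd44, a hyaluronan receptor, rose by 1.39 (SE 0.11), Itgal, another partner of Itgb2, by 1.00 (SE 0.12) and Icam1, a ligand of these integrins, by 0.55 (SE 0.10), with edgeR adjusted p of 6.04e-05, 1.73e-04 and 0.00132.

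Of 15 other genes of endotoxin sensing, 8 were in the table and all 8 rose in the body (median 0.90), 2 of them also in the head (4 with TMM or RLE scaling). Tlr4, the signalling receptor that Cd14 serves, rose by 1.27 (SE 0.17, edgeR adjusted p 3.41e-04), with 0.58 in the head that did not pass (edgeR adjusted p 0.108). Tlr2, which also uses Cd14, rose by 1.57 (SE 0.13, edgeR adjusted p 6.04e-05) and by 1.06 in the head (edgeR adjusted p 0.0188). The kinase Irak2 and its inhibitory relative Irak3 rose by 0.71 and 0.77 (SE 0.12 each, edgeR adjusted p 8.33e-04 and 5.70e-04).

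Of 15 other lysosomal genes 12 were in the table and all 12 rose in the body (median 0.84). In the head 2 passed (4 with TMM or RLE scaling, 1 with the authors' size factors). The head median was 0.26, and 9 of the 12 head values were positive (11 with TMM or RLE scaling). Ctsb, a cysteine protease, rose by 1.25 (SE 0.16, edgeR adjusted p 2.34e-04), and Ctsd, the aspartic protease with the most reads of the list, by 0.46 (SE 0.12, edgeR adjusted p 0.00707). Hexa, a subunit of a hexosaminidase, rose by 0.64 (SE 0.13, edgeR adjusted p 0.00199). 

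Markers of the mature cells were counted in the same way. All 7 of 16 monocyte and macrophage genes in the table rose in the body (median 1.26). In the head 2 of them passed (4 with TMM or RLE scaling, 1 with the authors' size factors). Csf1r, the receptor of macrophage colony-stimulating factor, rose by 1.27 (SE 0.20), Irf8, a monocyte transcription factor, by 1.36 (SE 0.21), Adgre1 (F4/80) by 0.98 (SE 0.13) and Cd68 by 0.52 (SE 0.10), with edgeR adjusted p of 6.72e-04, 5.60e-04, 2.72e-04 and 0.00164. All 3 of 11 neutrophil genes in the table rose (median 1.33), 2 of them also in the head (3 with TMM or RLE scaling). Fpr2, a receptor for bacterial formyl peptides, rose by 1.87 (SE 0.14), Trem1 by 1.33 (SE 0.24) and Csf3r, the G-CSF receptor, by 1.14 (SE 0.11), with edgeR adjusted p of 6.04e-05, 0.00129 and 7.82e-05.

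**Figure D5:**
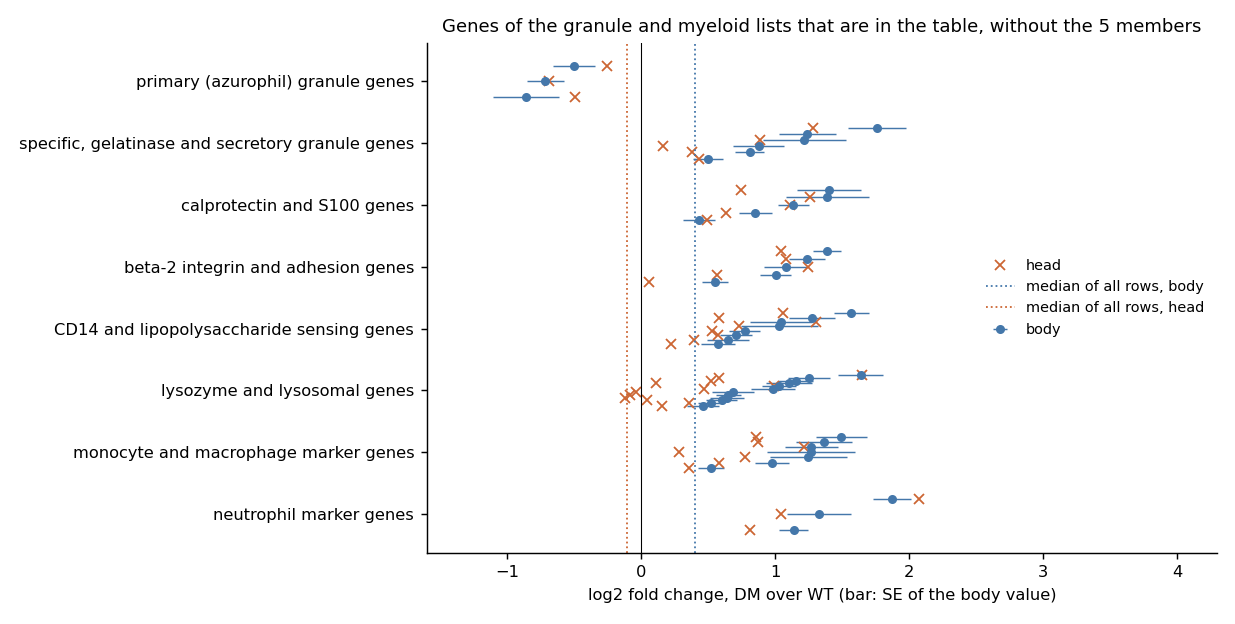
Log2 fold change of DM over WT (horizontal axis) of each gene of the 8 lists (vertical axis) that is in the table, body as circles with SE bars and head as crosses, without the 5 genes described here; dotted lines mark the medians of all rows, 0.40 in the body and -0.11 in the head. The 3 primary granule genes lie at or below -0.50 in the body, and the genes of the other 7 lists lie at or above 0.43.

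Markers of other cell types moved at the same time, and their part in these differences was not tested. Kit, which the label cKIT+ names, was transcribed in all libraries and fell in the body, with 1266 ± 259 RPM in WT against 657 ± 8.53 RPM in DM (SD over 3 libraries each; edgeR adjusted p 5.76e-04). Of 10 stem and progenitor genes 7 were in the table, with a summed body level of 2764 to 3547 RPM in WT and 1708 to 1776 in DM, most of it from Gata2 and Kit. Of the 6 tested, 5 were called lower in the body and 4 in the head, where 42.1% of all body rows and 10.9% of all head rows were. A body call was near certain for any row. Procr went the other way, higher by 1.26 in the body (edgeR adjusted p 0.00927, and 0.0516 without DM replicate 3) and by 1.62 in the head (edgeR adjusted p 0.0378). Cd34 fell by 0.75 in the body (edgeR adjusted p 0.00600; by 0.48 without WT replicate 3) and by 1.62 in the head (edgeR adjusted p 0.00778). Head calls of this list also rested on single libraries. Without DM replicate 1 no gene of it passed in the head. A higher head call remained only when WT replicate 1 was the library left out. The 4 of 10 mast cell and basophil genes summed to 1447 to 2592 RPM in WT and 1108 to 1184 in DM, and the 4 of 11 erythroid and megakaryocyte genes to 197 to 223 and 107 to 125. Of 10 lymphoid genes only Il7r was in the table (18.8 to 28.5 RPM in WT, 56.0 to 71.5 in DM), of 9 dendritic cell genes only Itgax (9.14 to 14.2 and 24.2 to 25.7), and of 8 eosinophil genes none. The 2 of 12 stromal and endothelial genes, Cav1 and Ccn1, summed to 1.53 to 7.27 RPM in WT and 3.61 to 6.92 in DM, and passed in opposite directions. Cav1 was higher by 2.11 (edgeR adjusted p 0.00102), and Ccn1 was at -2.60 (edgeR adjusted p 0.0143), with 142, 33 and 12 reads in the WT libraries against 15, 11 and 5 in those of DM; without WT replicate 1 it did not pass (-1.36, edgeR adjusted p 0.0779). Rows of unchanged genes are not in the table, so a marker that is missing from it has no value here.

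The neighbours of these genes in the table, within 250 kb, shared their direction in the body, where 57.4% of all rows were called higher and 42.1% lower; they were named after their values were seen. Around Ctsg, which sits in a cluster of granzyme and mast cell protease genes, the table held Gzmb, Cma2, Khnyn and Nynrin, and all 4 fell in the body, Gzmb by 1.08 and Cma2 by 0.87 on the log2 scale (edgeR adjusted p 0.00102 and 4.84e-04). Their head values were -1.33 and -1.19 (edgeR adjusted p 0.00848 and 0.0137), and without DM replicate 1 neither passed (edgeR adjusted p 0.0718 and 0.0956). Khnyn and Nynrin did not pass in the head (edgeR adjusted p 0.158 and 0.0669). Around Itgam, besides the overlapping gene model, Itgax rose by 1.08 and Pycard by 1.08 in the body (edgeR adjusted p 5.60e-04 and 0.00465), and in the head Itgax passed (1.25, edgeR adjusted p 0.0135) and Pycard did not (0.12, edgeR adjusted p 0.826). Around S100a8 the 4 rows held were all S100 genes that rose in the body, of which S100a4 passed in the head and S100a1, S100a3 and S100a6 did not. Cd14 had Ik, at 0.44 in the body (edgeR adjusted p 0.0143, and 0.0530 without DM replicate 1) and -0.28 in the head (edgeR adjusted p 0.446). No row other than Lyz2 itself lay within 250 kb of Lyz2.

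Likeness of profiles was measured as Pearson's r of body log2 RPM over the 6 libraries, given as a description of 6 points in 2 separate groups. Among 2527 genes with a mean of at least 50 body reads, the profiles most like Lyz2 were those of Gpnmb, Ctsb and Itpkb (r 0.9995, 0.9994 and 0.9991). The profiles most like S100a8 were those of Mmp9, Slc27a4 and Crispld2 (r 0.996, 0.9945 and 0.9942), and those most like Cd14 were Arnt2, Cry1 and Fgd4 (r 0.9947, 0.9944 and 0.994). For Itgam they were Bst1, Ica1 and Ptpn1 (r 0.9998, 0.9992 and 0.9992), and for Ctsg Rsph9, Zfp740 and Mycbpap (r 0.9877, 0.9843 and 0.9687). The 3 nearest profiles of Ctsg were less close to it than those of the other 4 genes were to them. All rows had been selected by a body difference between the groups, which favours a high r between rows of the same direction. Fewer of all body rows were called lower, as Ctsg was, than higher (42.1% against 57.4%).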

How the data were processed

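PRO-seq counts of 3 WT and 3 DM libraries were analysed. Raw read counts of head and body windows were deposited by the authors, with a library total per library whose counting rule is not given in the sources used here. RPKM values deposited by the authors could be recomputed exactly from reads, window length and library total. The mean signal deposited by the authors is the mean of body counts after size factors, which were solved for from it. The authors deposited log2 fold changes with an adjusted p-value for the body; their deposited percentile score ranks each row's head or body change. The tool is not given in the sources used here. The submitters' processing notes name mm10, dm3, cutadapt, Trimmomatic, Bowtie 1.1.2, MACS2 and bedtools 2.28 without their roles. The use of strand and of multiply mapped reads is not given.

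Counts of all 3022 rows were tested with edgeR 4.0.16 (limma 3.58.1, R 4.3.3): quasi-likelihood test, group as the only term, filterByExpr (minimum count 10, minimum total 15), library sizes set to the deposited library totals, Benjamini-Hochberg adjustment over all rows tested and a threshold of 0.05. Library totals were preferred to TMM because the rows were selected by the body comparison. The head to body ratio was tested as the interaction of window and group with library as a block. SE is the log2 fold change over the root of the F statistic, and 95% intervals use it. Gene lists are counted on 1 row per gene, the row with the highest mean body count. Counts were simulated with 2-fold changes in some rows and the same dispersion (spread beyond sampling noise) for every row and both groups. In them the body test recovered 94.5% of changed rows among 3016, the head test 84.2% among 2871 and the ratio test 46.9% among 2870. False calls numbered 8, 2 and 2. Counts of replicates differed by more than sampling noise (chi-square per degree of freedom 25.8 to 42.3 in WT, 2.74 to 7.02 in DM), so none was counted as a repeat.

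Named by rule are the 5 genes, up to 4 genes per granule, lysosomal, sensing, adhesion or myeloid list by mean body count whatever their change, and the 3 genes most like each of the 5; some values that this rule names are not reported here. Single markers of other cell types and neighbouring genes were named outside it, after their values were seen. The genes, lists and tests were chosen with earlier results of these data known. Promoters are from RefSeq (GRCm38.p6), which held 4 of the 5 genes; 98.0% of the table's rows had their symbol there. Alternatives were TMM, RLE and the authors' size factors, no filter, 1 row per gene, DESeq2 1.42.0, the replicate number as a block, leaving out each library, and a threshold of 0.01.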

Additional observations from a re-analysis of the deposited data

How the results depend on the processing

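For the 5 genes, all 70 alternative body values kept their direction and their side of the threshold, as did 65 of 70 head values; since the rows were selected by the body, the former shows no stability. Body log2 fold changes ran from 1.75 to 2.34 for Lyz2, 1.18 to 1.85 for S100a8, 1.02 to 1.58 for Cd14, 0.91 to 1.27 for Itgam and -1.18 to -0.73 for Ctsg. The head value of Cd14, 1.14, has an adjusted p of 0.0101 (edgeR) and so misses a threshold of 0.01. Leaving out 1 replicate, head values ran from 1.08 to 1.17 for Cd14, 1.04 to 1.23 for Itgam and -0.97 to -0.44 for Ctsg, with calls changed as given above. None of the ratio values passed under any alternative; separate TMM factors for head and body turned those of S100a8 to 0.30, Cd14 to 0.096 and Itgam to 0.24, since they move the median of all rows by 0.36, and without 1 replicate the value ran from -0.27 to 0.13 for S100a8 and -0.058 to 0.46 for Ctsg. Leaving out 1 replicate, the log2 change of the Ctsg body ratio ran from -3.19 to -2.69 against Lyz2 and from -2.24 to -2.01 against Itgam.

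Over all rows, 2982 body calls became 1980 at a threshold of 0.01 and 2287 to 2925 without 1 replicate. The 596 head calls became 1112 with TMM, 1114 with RLE, 492 with the authors' size factors, 136 at 0.01 and 18 to 1054 without 1 replicate. The 2 ratio calls became 41 with DESeq2, 61 with separate TMM factors, 46 with the replicate block, 0 at 0.01 (433 at an unadjusted p under 0.05) and 0 to 90 without 1 replicate. With the replicate number as a block, 2903 body and 891 head rows passed, and no call of the 5 genes changed; deviations of same-numbered libraries correlated at -0.066, -0.20 and 0.34 in the body and 0.12, 0.00026 and 0.063 in the head, so the numbers were not taken as pairs. With RLE scaling, list calls in the body fell most, from 12 to 9 for lysosomal and from 8 to 6 for sensing genes, with no change of sign, while head calls rose, for S100 genes from 2 to 5. The cause of these changes was not tested. Cd14, with 33 to 129 head reads per library, sets the depth limit.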
